A study of Mus musculus domesticus and Mus musculus molossinus with 8 samples.

Results

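The Serpina genes encode a family of mostly secreted proteins, many of them protease inhibitors, and most of the genes lie side by side on mouse chromosome 12. Described here are 10 of them, taken by symbol from the 23284 genes measured: Serpina1a, Serpina1b, Serpina1c, Serpina1d and Serpina1e, Serpina3g, Serpina3k, Serpina3m and Serpina3n, and their neighbour Serpina6. All 10 symbols were found in both gene tables. RNA sequencing of polyadenylated RNA gave 8 libraries from 4 mice aged 8 weeks, with liver and thymus from each mouse. In each of the strains MSM/Ms (MSM, a wild-derived inbred Japanese strain) and C57BL/6 (B6, a classical laboratory strain), 1 mouse received 1.5 µg of MegaFasL into the peritoneum and 1 was untreated. MegaFasL is a multimeric form of Fas ligand, which engages the death receptor Fas. No transgene or knockout was named in the labels for any group, and how long after the injection the organs were taken is not stated in the labels. The 8 groups, each of 1 library, were therefore MSM and B6 livers and MSM and B6 thymi, each with MegaFasL and untreated. The values are whole-organ measurements of groups without replicates.

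A serpin inhibits its protease with an exposed loop, the reactive centre loop, which the protease cuts as if it were a substrate; the serpin then changes shape and traps the enzyme. Serpina1 genes encode alpha-1 antitrypsin, the main plasma inhibitor of neutrophil elastase, and hepatocytes are its main source. Humans have a single copy, whereas mice carry several near-identical copies whose number differs among strains; how many MSM carries was not analysed here. The Serpina3 genes are the mouse counterparts of human alpha-1 antichymotrypsin, and several of them are acute-phase genes. Serpina6 encodes corticosteroid-binding globulin, a serpin that carries glucocorticoid hormones in plasma and does not act as a protease inhibitor.

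The stretch of coding sequence that makes the reactive centre loop is shown first, because the copies of alpha-1 antitrypsin differ there more than in the bases before it, so short reads from it can tell them apart. The sequences are the coding strand, 5′ to 3′, of GENCODE M21 transcripts on mm10 (chromosome 12), and each lies within 1 coding exon. In the Serpina1 sequences capitals mark the positions that are not the same in all 5 genes.
Serpina1a: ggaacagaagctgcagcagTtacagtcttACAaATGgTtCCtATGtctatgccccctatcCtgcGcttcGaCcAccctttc
Serpina1b: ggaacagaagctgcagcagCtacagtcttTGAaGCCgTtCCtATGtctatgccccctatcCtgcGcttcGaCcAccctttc
Serpina1c: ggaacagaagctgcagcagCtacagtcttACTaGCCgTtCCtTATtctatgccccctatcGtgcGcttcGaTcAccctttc
Serpina1d: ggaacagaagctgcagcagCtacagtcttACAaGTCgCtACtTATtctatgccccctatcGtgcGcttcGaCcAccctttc
Serpina1e: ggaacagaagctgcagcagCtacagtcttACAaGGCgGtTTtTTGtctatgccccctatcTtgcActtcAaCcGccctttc
These lie on the minus strand at chr12:103853750-103853830 (Serpina1a), chr12:103728317-103728397 (Serpina1b), chr12:103895087-103895167 (Serpina1c), chr12:103763755-103763835 (Serpina1d) and chr12:103947093-103947173 (Serpina1e). Of the 81 bases, 18 varied among the 5 genes, or 22.2%, against 55 of the 900 coding bases just before them, or 6.11%. Serpina1c and Serpina1d differed from each other at 5 of the 81 bases and Serpina1a and Serpina1b at 6. Serpina1e differed most, at 12 bases from Serpina1a and from Serpina1c.

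The same stretch of the Serpina3 genes is shown because these genes have similar ends and loops that differ in sequence and length. Capitals mark the bases between the hinge codons and the closing codons.
Serpina3g: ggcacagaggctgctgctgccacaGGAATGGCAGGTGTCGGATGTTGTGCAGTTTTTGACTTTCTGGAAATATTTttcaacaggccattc
Serpina3k: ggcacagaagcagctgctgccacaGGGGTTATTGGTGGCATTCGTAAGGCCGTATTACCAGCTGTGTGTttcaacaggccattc
Serpina3m: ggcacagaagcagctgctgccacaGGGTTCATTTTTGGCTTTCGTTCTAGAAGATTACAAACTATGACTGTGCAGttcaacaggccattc
Serpina3n: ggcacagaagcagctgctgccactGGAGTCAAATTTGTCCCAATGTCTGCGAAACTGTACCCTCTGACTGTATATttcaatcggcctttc
They lie on the plus strand at chr12:104241072-104241161 (Serpina3g), chr12:104345269-104345352 (Serpina3k), chr12:104393769-104393858 (Serpina3m) and chr12:104413448-104413537 (Serpina3n). The variable middle was 45 bases long in Serpina3k and 51 bases long in Serpina3g, Serpina3m and Serpina3n.

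In the deposited tables the Serpina1 genes span chr12:103728156-103956897 and the Serpina3 genes chr12:104214544-104414329, with Serpina6 at chr12:103646632-103657071. Over the whole coding sequence, pairs of Serpina1 genes were identical at 96.3% to 98.5% of aligned bases. Serpina3k, Serpina3m and Serpina3n were identical at 83.5% to 91.8%, and a Serpina1 gene against one of these 3 at 58.1% to 60.9%. Of all windows of 50 bases in the Serpina1c transcript, 73.3% occurred unchanged in another Serpina transcript, the highest share of the 10, and 37.9% in Serpina1e, the lowest of the 5 copies. The share was 19.1% for Serpina3m, 16.0% for Serpina3g, 14.0% for Serpina3k, 6.90% for Serpina3n and 0 for Serpina6. Reads from shared windows are divided among the copies by the authors' software, so a level of a single Serpina1 gene is uncertain and the sum of the 5 is less so. All 39 liver values above 0 carried an interval by the authors whose lower bound was 0 and whose upper bound was 2.37 to 4.56 times the value, Serpina6 with its 0 shared windows included.

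All values are FPKM, fragment numbers scaled by transcript length and by library size. How the library size was set is not stated in the labels. MSM reads were aligned to mm10, a genome made from B6, so MSM alleles that differ can lose reads. On a transcript of 1 kb, a level of 1 FPKM stood for an estimated 1.46 to 1.68 fragments in livers and 2.61 to 3.18 in thymi, and 10412 to 11833 genes reached 1 FPKM in a library. Hepatocyte markers (11 genes, albumin among them) summed to 106780 to 143529 FPKM in livers and to at most 3318 FPKM in thymi, and none was at 0 in any library. Thymocyte markers (10 genes) summed to 4.17 to 38.1 FPKM in livers and to 1260 to 2128 FPKM in thymi. The untreated MSM thymus stood apart: its hepatocyte markers summed to 3318 FPKM, against at most 233 FPKM in the other thymi. In that library 4 airway epithelium markers summed to 1145 FPKM, against 1.07 to 7.01 FPKM in the other thymi, and 5 adipose markers to 499 FPKM, against 55.5 to 96.5 FPKM.

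Both clusters were abundant liver transcripts, led by Serpina3k. Together the 10 genes held 2.73% of all FPKM in the MSM liver with MegaFasL, 2.06% in the untreated MSM liver, 2.95% in the B6 liver with MegaFasL and 1.83% in the untreated B6 liver. Serpina3k, which encodes a kallikrein-binding serpin, had 9113 FPKM in the MSM liver with MegaFasL, 4949 FPKM in the untreated MSM liver, 7419 FPKM in the B6 liver with MegaFasL and 3891 FPKM in the untreated B6 liver. It was the most abundant of the 10 in each of the 4 livers, and its lowest value lay above the highest of every other member. Serpina1b came next with a mean of 3302 FPKM over the 4 livers (lowest 2926, highest 3787). The means of Serpina1d, Serpina1c and Serpina1a were 2481, 1747 and 1127 FPKM in that order. Serpina1b overlapped Serpina1d, and Serpina1d overlapped Serpina1c, but the lowest Serpina1c value lay above the highest Serpina1a value. Within every single liver the order Serpina3k, Serpina1b, Serpina1d, Serpina1c, Serpina1a held. Serpina1e, Serpina3m, Serpina6 and Serpina3n followed with means of 539, 380, 284 and 232 FPKM, and each overlapped its neighbour in that order. Serpina3g, an intracellular inhibitor of cathepsins known from lymphocytes, was by far the lowest in liver, between 0 and 4.89 FPKM. FPKM is scaled by length, so these levels can be set against each other, with the shared reads as a limit.

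**Figure D1:**
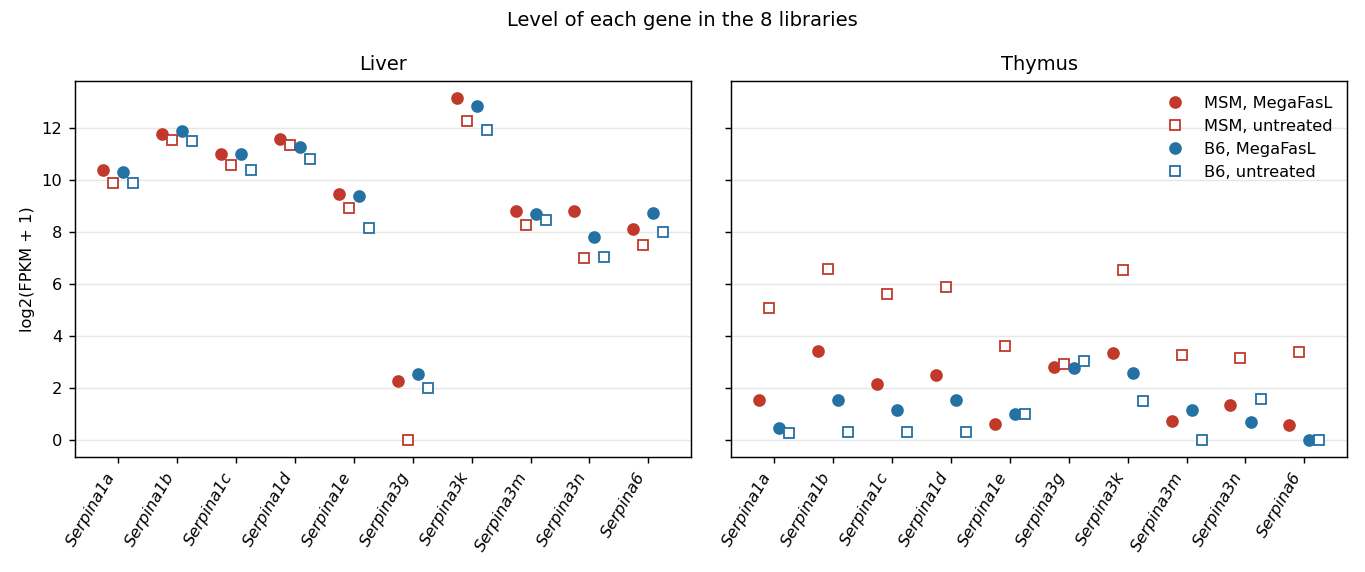
Levels of the 10 genes as log2(FPKM + 1) in the livers (left) and the thymi (right), 1 point per library, with red for MSM, blue for B6, filled circles for MegaFasL and open squares for untreated. In the livers 9 genes sit well above Serpina3g, and in the thymi the open red squares of the untreated MSM mouse stand above the other libraries for every gene but Serpina3g.

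The 5 copies of alpha-1 antitrypsin divided its RNA in the same order in every liver. Within the summed Serpina1 FPKM of a liver, Serpina1b held 33.1% to 40.2%, Serpina1d 23.9% to 30.6%, Serpina1c 17.9% to 20.2%, Serpina1a 11.1% to 13.0% and Serpina1e 3.93% to 6.68%. Serpina1d held 28.7% and 30.6% in MSM livers with MegaFasL and untreated, against 23.9% and 24.4% in the corresponding B6 livers. Serpina1b held 33.1% and 34.6% in those MSM livers, against 37.0% and 40.2% in the B6 livers. For both shares the strains did not overlap, which is common with 2 livers per strain. Among the levels of all genes, 20.5% did not overlap with MSM higher and 22.8% with MSM lower. Shares of 1 sum depend on each other. The Serpina1b level itself overlapped between the strains and differed by -0.04, MSM minus B6. The shares were not tested, and both genes have stretches in common with other Serpina transcripts. Within the Serpina3 sum, Serpina3k held 88.9% to 92.1%, Serpina3m 4.47% to 8.06% and Serpina3n 2.36% to 4.48%.

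**Figure D2:**
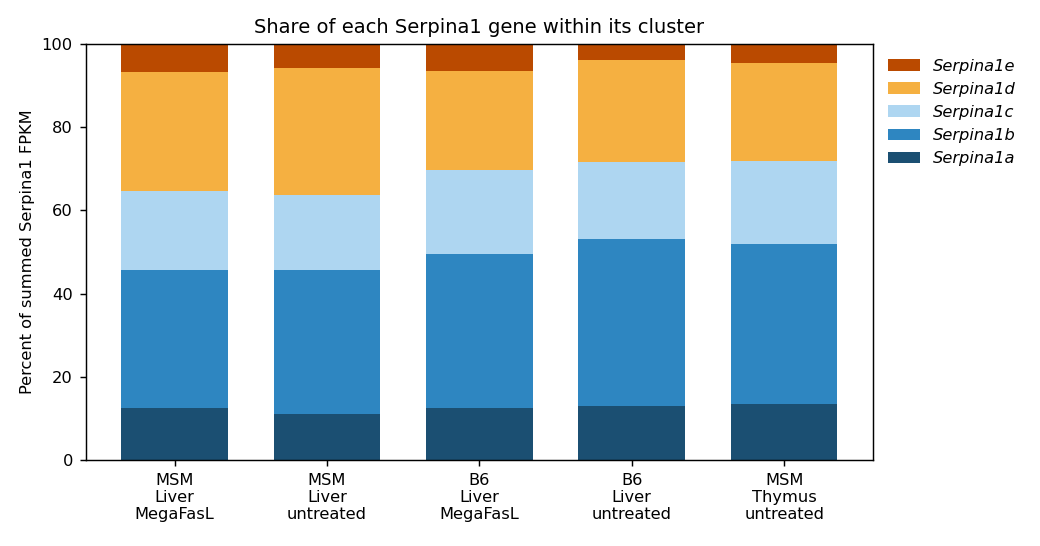
Share of each Serpina1 gene in the summed Serpina1 FPKM, in percent, for the 4 livers and the untreated MSM thymus, stacked with Serpina1a at the bottom. Serpina1b and Serpina1d together hold most of each bar, and the Serpina1d segment is taller in the MSM livers than in the B6 livers.

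How far did the injected livers stand from the untreated ones? All 10 genes were higher with MegaFasL in both strains, by a modest amount for most. The difference was not tested, because treatment coincides with the table and each table was normalized separately. The libraries were centred within liver by the median ratio over expressed genes, after which the median log2 difference of all genes was -0.00 in MSM and -0.01 in B6. Of the 10950 genes compared, 27.6% were higher by any amount in both strains. In 9 of the 10 genes, all but Serpina1d, both injected livers lay above both untreated livers, against 16.8% of all genes. None lay below, against 16.7% of all genes. Genes at least 2-fold higher were Serpina3g and Serpina3n in MSM, against 6.65% of all genes, and Serpina1e in B6, against 6.47%. Serpina3g was listed at 0 in the untreated MSM liver, and its difference was 0.81, under 2-fold, with 5 FPKM added. None was 2-fold lower, against 7.11% of all genes in MSM and 6.24% in B6. None of the 10 was at least 2-fold higher in both strains, against 1.63% of all genes, or lower in both, against 1.27%. The livers with MegaFasL and the untreated livers differ in mouse, table and treatment at once, which cannot be told apart.

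Of the alpha-1 antitrypsin genes, the 5 together summed to 10668 FPKM in the MSM liver with MegaFasL, against 8582 FPKM in the untreated one, and to 10246 FPKM in the B6 liver with MegaFasL, against 7286 FPKM in the untreated one. After centring, the injected liver held 1.21 times the untreated sum in MSM and 1.34 times in B6. Taken as a percent of all FPKM of the library, the ratios were 1.11 in MSM and 1.44 in B6, so their size depends on the scaling. The log2 differences of the 5 genes were 0.18 to 0.50 in MSM and 0.31 to 1.15 in B6. Serpina1e, the least abundant copy, had 713 FPKM in the MSM liver with MegaFasL and 491 FPKM in the untreated MSM liver. It had 664 FPKM in the B6 liver with MegaFasL and 286 FPKM in the untreated B6 liver, so the untreated B6 liver was the low one. Serpina1d had 3064 FPKM with MegaFasL and 2630 FPKM untreated in MSM, and 2448 FPKM with MegaFasL and 1781 FPKM untreated in B6. The injected B6 liver therefore lay below the untreated MSM liver for this gene.

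The Serpina3 sum stood further apart than the Serpina1 sum, through its most abundant gene. After centring, the Serpina3 sum in the injected liver was 1.81 times the untreated sum in MSM and 1.76 times in B6. Taken as a percent of all FPKM of the library, the ratios were 1.66 in MSM and 1.89 in B6. Serpina3k was higher by 0.84 on the log2 scale in MSM and by 0.87 in B6. Serpina3n, an acute-phase serpin that inhibits granzyme B, had 449 FPKM in the MSM liver with MegaFasL, 127 FPKM in the untreated MSM liver, 221 FPKM in the B6 liver with MegaFasL and 131 FPKM in the untreated B6 liver. Its differences were 1.77 in MSM and 0.69 in B6, and the untreated livers of the strains were nearly alike. Serpina3m had 448 FPKM with MegaFasL and 310 FPKM untreated in MSM, and 411 FPKM with MegaFasL and 353 FPKM untreated in B6, with differences of 0.49 and 0.16. Serpina3g had 3.85 FPKM in the MSM liver with MegaFasL and was listed at 0 in the untreated MSM liver, so no fold is given. In B6 it had 4.89 FPKM with MegaFasL and 3.01 FPKM untreated, an estimated 14.8 and 8.35 fragments.

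Serpina6, the glucocorticoid carrier, had 278 FPKM with MegaFasL and 181 FPKM untreated in MSM livers, and 419 FPKM with MegaFasL and 258 FPKM untreated in B6 livers. The log2 differences were 0.58 in MSM and 0.63 in B6, close to one another. The injected MSM liver lay between both B6 livers for this gene.

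**Figure D3:**
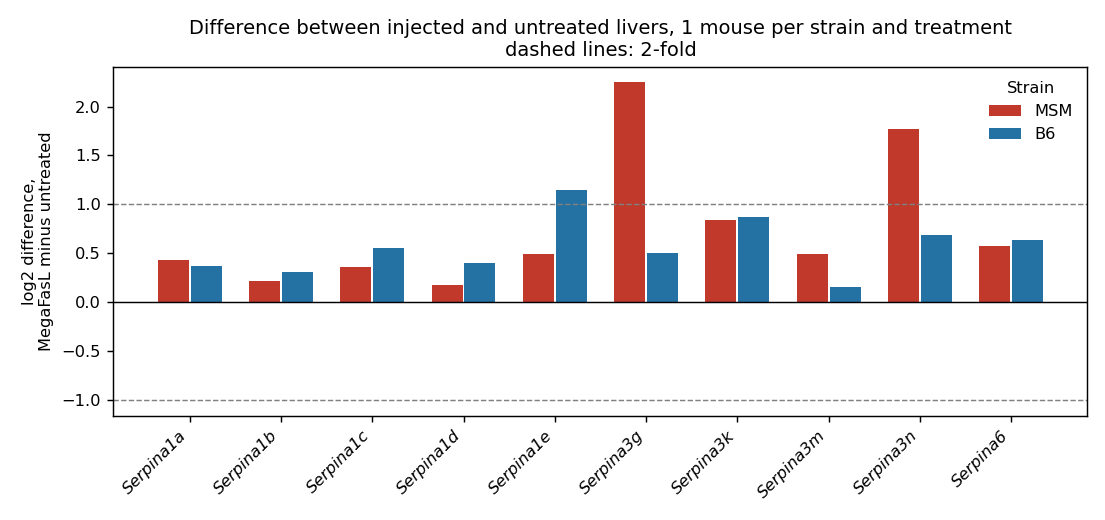
Log2 difference, MegaFasL minus untreated, of the centred log2(FPKM + 1) levels of the 10 genes in liver, as red bars for MSM and blue bars for B6, with 1 mouse behind each level. Every bar is above 0, Serpina3n and Serpina3g pass the dashed line of 2-fold in MSM and Serpina1e passes it in B6; the MSM bar of Serpina3g is set against a library at 0 and is no fold.

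Other genes of the same pathways were set beside these, with lists that hold acute-phase genes, their regulators, glucocorticoid-responsive genes and other serpins. Of 21 acute-phase genes, with medians of 0.14 in MSM and 0.00 in B6, none was 2-fold lower in both strains, against 1.27% of all genes. At least 2-fold higher in both strains was 1 of the 21, against 1.63% of all genes. It was Lcn2, which encodes the iron-chelating lipocalin-2, with 7.82 FPKM in the MSM liver with MegaFasL and a listing at 0 in the untreated one, and 7.69 FPKM in the B6 liver with MegaFasL and 1.87 FPKM in the untreated one. With 5 FPKM added before the logarithm its B6 difference was 0.85, under 2-fold. In single strains 6 of the 21 were at least 2-fold higher in MSM, against 6.65% of all genes, and 2 in B6, against 6.47%. Saa1, a serum amyloid A gene, differed by 3.47 in MSM and -0.92 in B6, so the acute-phase genes did not share 1 pattern. Of 13 acute-phase regulators 1 was at least 2-fold higher in both strains, against 1.63% of all genes: Il6ra, which encodes the interleukin-6 receptor. Il6ra had 52.2 FPKM in the MSM liver with MegaFasL and 9.75 FPKM in the untreated one, and 29.7 FPKM in the B6 liver with MegaFasL and 6.59 FPKM in the untreated one. Of 12 glucocorticoid-responsive genes 5 were at least 2-fold higher in both strains, against 1.63% of all genes. The medians of the 12 were 1.57 in MSM and 1.14 in B6. Fkbp5, a co-chaperone of the glucocorticoid receptor, had 89.5 FPKM with MegaFasL and 5.07 FPKM untreated in MSM livers, and 45.4 FPKM with MegaFasL and 9.95 FPKM untreated in B6 livers. The metallothioneins Mt1 and Mt2 differed by 5.13 and 4.32 in MSM and by 2.15 and 2.61 in B6. The other two were the clock gene Per1, at 3.23 in MSM and 3.44 in B6, and the transcription factor gene Zbtb16, at 2.13 in MSM and 2.37 in B6. The B6 difference of Per1 ran from 1.76 to 5.10 with the value added before the logarithm. With opposite signs in the strains, Pdk4, which encodes a pyruvate dehydrogenase kinase, differed by 0.83 in MSM and -2.47 in B6, and the kinase gene Sgk1 by 1.21 in MSM and -0.63 in B6. Of 13 other plasma and tissue serpins none was 2-fold higher or lower in both strains, against 1.63% and 1.27% of all genes. Macrophage markers (7 genes) summed to 40.9 and 149 FPKM in the MSM and B6 livers with MegaFasL, against 57.6 and 285 FPKM in the untreated MSM and B6 livers, and none was at 0. Neutrophil markers (6 genes) summed to 28.6 and 31.0 FPKM in the MSM and B6 livers with MegaFasL, against 7.09 and 19.0 FPKM in the untreated MSM and B6 livers, with 3 or 4 of them at 0 in each liver. The part of these cells in the differences above was not tested.

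Between the strains, no member passed the test in liver. The strain difference was fitted with limma on the 4 livers with treatment as a term, and genes were called at a Benjamini-Hochberg adjusted p under 0.05. Of 10971 genes 161 were called, or 1.47% (0.51% higher and 0.957% lower in MSM), and none of the 10 Serpina genes was among them. The fit has 1 residual degree of freedom. Its spread joins how far the strain difference of a gene varied between treatments with the spread of genes of similar level, toward which limma moderates it. It is not a spread between mice of 1 group. A member that missed the threshold is not shown to be alike in the strains.

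Only Serpina1d had both MSM livers above both B6 livers, against 20.5% of all genes, and no member had both MSM livers below both B6 livers, against 22.8%. Its difference, MSM minus B6, was 0.44 ± 0.18 (SE) with an adjusted p of 0.331 in limma. Serpina6 had the smallest adjusted p of the 10, 0.255 in limma, with a difference of -0.55 ± 0.18 (SE). It was lower in the MSM mouse within each treatment, by -0.59 with MegaFasL and -0.51 untreated. Serpina3n differed by 1.02 between the injected MSM and B6 livers and by -0.04 between the untreated ones, and its joint difference was 0.49 ± 0.30 (SE, limma adjusted p of 0.498). Serpina3k differed by 0.32 ± 0.18 (SE, limma adjusted p of 0.447), by 0.30 with MegaFasL and 0.35 untreated. Serpina1e differed by 0.44 ± 0.23 (SE, limma adjusted p of 0.439), most of it between the untreated livers. Serpina1a, Serpina1b, Serpina1c and Serpina3m differed by between -0.04 and 0.08. Serpina3g differed by -1.14 ± 0.54 (SE, limma adjusted p of 0.385), which rests on the untreated MSM liver listed at 0.

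**Figure D4:**
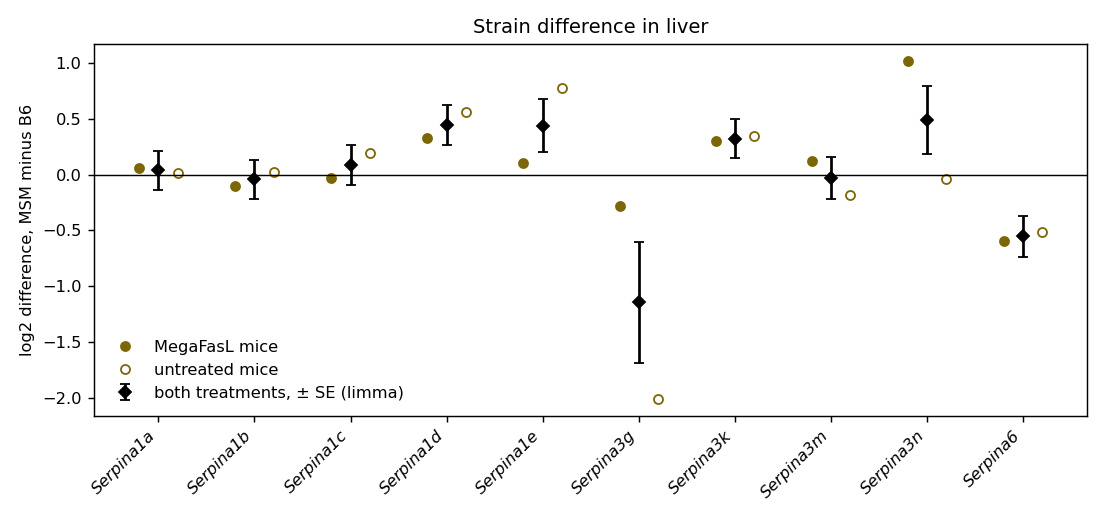
Strain difference in liver, MSM minus B6 on the log2 scale, with black diamonds and SE bars for both treatments joined (limma), filled circles for MegaFasL mice and open circles for untreated mice. Serpina1d lies above 0 and Serpina6 below 0 in both treatments, Serpina3n is near 0 in untreated mice and near 1 in MegaFasL mice, and no gene passed the threshold.

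Genes that are no members were called between the strains in the same fit. Of the 21 acute-phase genes 2 were called, both lower in MSM, against 0.957% of all genes called lower. They were Orm1, an orosomucoid gene, at -2.43 and Hamp, the hepcidin gene, at -2.64. Hamp had 285 and 398 FPKM in the MSM livers with MegaFasL and untreated, against 2647 and 1664 FPKM in the B6 livers. The largest difference of the list was in the other direction: Orm3, another orosomucoid gene, differed by 2.75 ± 0.68 (SE, limma adjusted p of 0.174). Orm3 had 24.5 and 16.2 FPKM in the MSM livers with MegaFasL and untreated. In B6 it had 8.76 FPKM with MegaFasL and was listed at 0 in the untreated liver, on which the size of the difference rests in part. With 1 liver left out and no treatment term, Orm1 differed by -2.59 to -2.28 and Hamp by -2.97 to -2.30, and neither passed the threshold. Orm1 and Hamp also missed it in limma without trend, with adjusted p of 0.0853 and 0.118, and Hamp with 5 FPKM added, with 0.0523.

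Between the tissues, 9 of the 10 genes were higher in liver, and Serpina3g was not. Liver minus thymus was fitted with limma over all 8 libraries with mouse as a block. The fit called 28.6% of 12880 genes as higher in liver and 32.1% as lower, 60.7% in all, so a call by itself is common. Because the tested genes need a mean of 1 FPKM in either tissue, a gene that is high in liver passes through its liver level. The largest difference among the 10 was that of Serpina3k, 9.07 ± 0.80 on the log2 scale (SE, limma adjusted p of 0.000258). The Serpina1 genes differed by 7.43 to 8.72, Serpina3m by 7.27, Serpina6 by 7.09 and Serpina3n by 5.97 ± 0.60. Every liver lay above every thymus for these 9 genes, against 26.3% of all genes. In bulk tissue, fewer cells of a type and less RNA per cell cannot be told apart.

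Serpina3g had lower values in liver than in thymus, although it lies in the same cluster. It had 3.85, 0, 4.89 and 3.01 FPKM in the livers of the MSM mouse with MegaFasL, the untreated MSM mouse, the B6 mouse with MegaFasL and the untreated B6 mouse. The thymi, in the same order of mice, had 6.00, 6.62, 5.87 and 7.18 FPKM, so every liver lay below every thymus, against 29.9% of all genes. The difference, liver minus thymus, was -1.18 ± 0.46 (SE), with a limma adjusted p of 0.0665, which missed the threshold. It passed with the values rescaled to a common sum, at -2.32 with an adjusted p of 0.0105, and with 5 FPKM added before the logarithm, at -0.57 with an adjusted p of 0.0433. Rescaling also moved the median of all genes to -1.05, against -0.13 without it. Thymus levels of Serpina3g varied little among the 4 mice, and the MSM minus B6 difference in thymus was -0.04 ± 0.26 (SE, limma adjusted p of 0.971). Thymocyte markers in liver summed to 0.222%, 0.472%, 0.290% and 1.79% of the thymus of the same mouse in the same order, and their part in the liver value was not tested. The same cluster holds Serpina3i, which had at most 0.958 FPKM in livers and 1.75 to 4.62 FPKM in thymi. It differed by -1.60 (limma adjusted p of 0.0023). It entered the fit only through its thymus level, so this call adds no support. Serpina3f, of the same cluster, differed by 0.41, did not pass the test and was -0.20 after rescaling.

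In thymus the 9 remaining genes were low in B6 and highest in the untreated MSM mouse. Serpina3k had 9.07 FPKM in the MSM thymus with MegaFasL, 92.8 FPKM in the untreated MSM thymus, 4.91 FPKM in the B6 thymus with MegaFasL and 1.80 FPKM in the untreated B6 thymus. Serpina1b had 9.71, 93.5, 1.94 and 0.237 FPKM in that order of libraries, the last an estimated 1.05 fragments. Serpina6 had 0.509 FPKM in the MSM thymus with MegaFasL and 9.56 FPKM in the untreated MSM thymus, and was listed at 0 in both B6 thymi. The untreated MSM thymus was the highest library for all 9, and no member passed the limma test between strains in thymus, where 0.973% of 11610 genes were called (0.379% higher and 0.594% lower in MSM). The MSM minus B6 difference of Serpina1b was the largest of the 10, 4.06 ± 0.91 (SE), with a limma adjusted p of 0.148. It passed with a filter of 5 FPKM, with an adjusted p of 0.032, and with 0.1 FPKM added, with 0.0155; over all alternatives the adjusted p ran from 0.0155 to 0.884. Within a treatment the difference of Serpina1b was 1.86 with MegaFasL and 6.26 untreated. With the MSM thymus with MegaFasL left out, MSM was the untreated thymus alone, the library with high liver, airway and adipose markers. That fit cannot test the strain.

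That high library is the one in which liver genes as a group were high. The thymus level of the 9 genes, as a percent of the liver level of the same mouse, had a median of 0.152% in the MSM mouse with MegaFasL, 3.13% in the untreated MSM mouse, 0.0662% in the B6 mouse with MegaFasL and 0.0176% in the untreated B6 mouse. The 11 hepatocyte markers had medians of 0.135%, 3.21%, 0.0591% and 0.0386% in the same mice. Albumin stood at 0.162%, 2.38%, 0.0901% and 0.0386%. The medians of both sets ranked the mice in the same order, and in the untreated MSM mouse the 9 genes ranged from 1.88% for Serpina3k to 6.20% for Serpina3n, against 1.99% to 13.0% for the markers. In the thymus of that mouse Serpina1b held 38.5% of the summed Serpina1 FPKM and Serpina1d 23.6%. Over all livers the first was within the range and the second just below it. Both lay outside the MSM livers, with 33.1% and 34.6% for Serpina1b and 28.7% and 30.6% for Serpina1d. The B6 livers had 37.0% and 40.2% for Serpina1b and 23.9% and 24.4% for Serpina1d. The part of liver RNA in the thymus levels was not tested. Without the untreated MSM mouse the liver minus thymus difference of Serpina3k was 10.19, and all 9 genes kept their call.

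**Figure D5:**
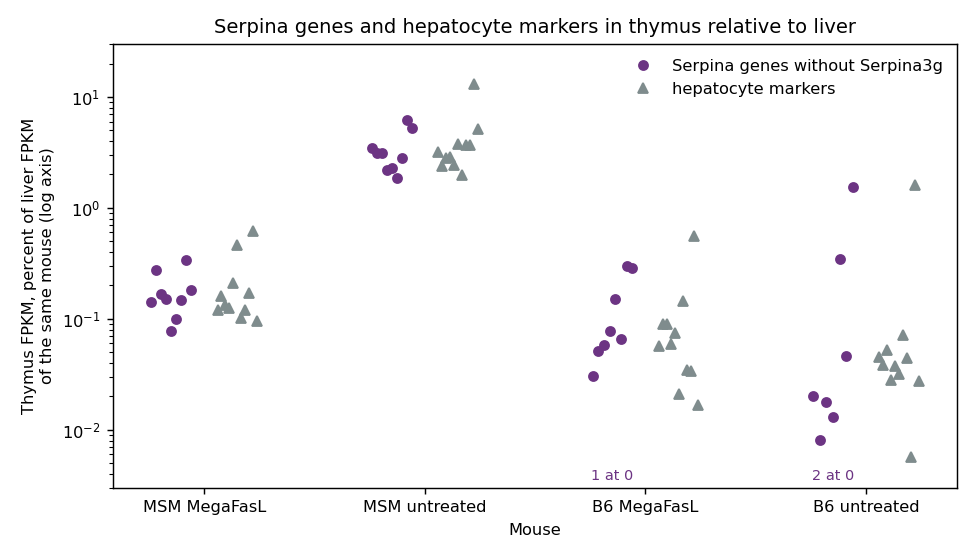
Thymus FPKM as a percent of liver FPKM of the same mouse on a log axis, for the 9 Serpina genes without Serpina3g (purple circles) and 11 hepatocyte markers (grey triangles), with genes at 0 in thymus counted at the bottom. In the untreated MSM mouse both sets lie between 1.88% and 13.0%, and in the other mice their medians are at most 0.152%.

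The injected and untreated thymi were compared without a test, and in MSM the untreated one was the library that stood apart. In MSM 9 of the 10 genes were at least 2-fold lower with MegaFasL, against 9.65% of all genes, and none was 2-fold higher, against 1.84%. In B6 Serpina1b, Serpina1d, Serpina3k and Serpina3m were at least 2-fold higher with MegaFasL, against 2.11% of all genes, and none was 2-fold lower, against 1.73%. None differed by 2-fold in the same direction in both strains, where 0.267% of all genes were higher and 0.422% lower. The B6 values are small: Serpina1d had 1.91 FPKM with MegaFasL and 0.234 FPKM untreated, an estimated 8.28 and 1.04 fragments.

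Proteases listed as targets of these inhibitors were measured as well. The neutrophil serine proteases Elane, Prtn3 and Ctsg were at most 0.848 FPKM in every library. Ctss, a cathepsin of macrophages, had 7.17 FPKM with MegaFasL and 14.5 FPKM untreated in MSM livers, and 21.7 FPKM with MegaFasL and 43.8 FPKM untreated in B6 livers. The listed proteases did not share 1 direction. Ctsl differed by 0.63 in MSM and -0.42 in B6, and Klkb1 by 0.50 and -0.19. The medians of the 7 proteases compared in liver were 0.21 in MSM and -0.42 in B6. None of the 7 was 2-fold higher or lower in both strains, against 1.63% and 1.27% of all genes.

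Some genes had a pattern over the 4 livers close to those of the members, measured as the root mean square distance between log2(FPKM + 1) values centred on their own mean, among 2819 genes with a mean liver level of at least 20 FPKM. The genes nearest to Serpina3n were Sds at a distance of 0.0854, Snora28 at 0.0857 and Enpp2 at 0.124. Sds, which encodes serine dehydratase, had 302 FPKM in the MSM liver with MegaFasL, 76.9 FPKM in the untreated one, 128 FPKM in the B6 liver with MegaFasL and 84.8 FPKM in the untreated one. Near to Serpina6 were Yif1a and Trim24, at 0.0674 and 0.0822. Nearest to Serpina3k were Ube2b, D19Wsu162e and Gm9766, at 0.0663, 0.0705 and 0.0735. Nearest to the summed Serpina1 level were Rnf128, 6330578E17Rik and Gpld1, at 0.0159, 0.0335 and 0.0338. With 4 livers and so many candidates, a small distance is a description of these libraries.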

How the data were processed

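The authors deposited gene levels as FPKM in 2 tables, 1 for the untreated and 1 for the injected mice; the alignment used TopHat on mm10 and the levels Cuffdiff 2.2.1, per the submitters' processing notes. The tables were normalized separately, and the labels state neither the annotation nor the run settings nor the level of the authors' intervals. No column lacked a sample. Groups were taken from the labels. Levels were compared as log2(FPKM + 1), which understates differences of low genes. Genes averaging 1 FPKM or more in the fitted libraries (in either tissue, for tissues) entered two-sided limma tests (version 3.58.1, mean trend, R 4.3.3). P-values were adjusted by Benjamini-Hochberg over all of them. Strain was fitted within a tissue with treatment as a term, which keeps each difference within 1 table. Liver minus thymus was fitted with mouse as a block, since both organs came from the same mouse. The injection was not tested, since treatment coincides with the table; libraries were centred by the median ratio within a tissue and genes counted at 2-fold. P-values measure the spread between these libraries, moderated by limma toward that of genes of similar level, not among mice of 1 group.

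Depth was estimated from the FPKM of 9029 single-mRNA genes of 1500 bases or more, by the scale that made most values whole fragments within 0.1; 55.5% to 60.2% of values were whole, against 20% by chance. Loop sequences, loci and identities came from GENCODE M21 transcripts and Biopython 1.88. All 10 genes are described in each comparison, with up to 3 genes of each pathway list by size of difference (mean of at least 5 FPKM) and the 3 nearest genes by pattern, of which 1 is not reported here; Lcn2, Zbtb16, Sgk1, Elane, Prtn3, Ctsg, Serpina3f, Serpina3i and Serpina10 in some comparisons fall outside this rule and were named after their values were seen. The members and lists were chosen with earlier results of these data known. Alternatives were added values of 0.1 and 5 FPKM, no filter and a filter of 5 FPKM, median-ratio centring, rescaling to a common sum, robust moderation, no mean trend, no treatment or mouse term, and each library (with no treatment term) or mouse left out in turn. The limma code was tested on simulated data with 200 changed genes. The simulated spread was the same for every gene, so this checked the code only, not how well differences are found in these libraries.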

Additional observations from a re-analysis of the deposited data

Results flagged for a closer look

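The difference between injected and untreated thymi had opposite directions in the strains for 4 genes, each by at least 2-fold. Serpina1b differed by -3.25 on the log2 scale in MSM thymus and by 1.23 in B6 thymus, MegaFasL minus untreated. Serpina1d differed by -3.47 in MSM and 1.23 in B6. Serpina3k differed by -3.33 in MSM and 1.05 in B6, and Serpina3m by -2.63 in MSM and 1.14 in B6. With 1 mouse per strain and treatment the difference between the strains was not tested. The MSM values rest on the untreated MSM thymus, in which the hepatocyte markers summed to 3318 FPKM (233 FPKM or less in each other thymus), and the B6 values on an untreated thymus with an estimated 1.05 fragments of Serpina1b, 1.04 of Serpina1d and 0 of Serpina3m.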

How the results depend on the processing

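The number of genes called between MSM and B6 in liver, 161, was 336 with values rescaled to a common sum and 37 in limma without trend; without any 1 library and the treatment term it was 0 (lowest and highest), with 821 to 1229 genes at an unadjusted p under 0.05. In thymus 113 were called, 300 with 0.1 FPKM added, 62 without a filter, 184 with a filter of 5 FPKM, 54 after median centring, 45 rescaled, 44 without trend, 274 with robust moderation and 10 to 301 without 1 library and the treatment term. Genes at least 2-fold different in both strains in injected livers numbered 317, 551 with 0.1 FPKM added, 108 with 5 FPKM added and 197 with a filter of 5 FPKM. Liver minus thymus called 7821 genes, 7861 with no replicate block, and no member changed its call without the block; rescaled it called 9872, of which 2084 were higher in liver, against 3687 without rescaling. The strain fits compare MSM and B6 within a treatment; without the treatment term they called 143 genes in liver and 78 in thymus. Among members, 115 of the liver strain values kept their direction and side of the threshold and 14 reversed, none of them past the threshold. Serpina1a reversed to -0.14 rescaled, -0.20 without the MSM liver with MegaFasL and -0.18 without the untreated B6 liver, and Serpina1c to -0.094, -0.12 and -0.23 in these settings. Without the untreated B6 liver Serpina1e was -0.17 and Serpina3k -0.14; without the MSM liver with MegaFasL Serpina3k was -0.12 and Serpina3n -0.42. Without the untreated MSM liver Serpina1b was 0.08, Serpina3m 0.23 and Serpina7 -1.05; without the B6 liver with MegaFasL they were 0.14, 0.08 and -0.03. The highest values without 1 library were 0.27 for Serpina1a, 0.39 for Serpina1c, 1.04 for Serpina1e, 0.79 for Serpina3k, 1.39 for Serpina3n and 2.15 for Serpina7, and the lowest were -0.23 for Serpina1b and -0.30 for Serpina3m. In thymus Serpina3g was 0.02 without the MSM thymus with MegaFasL and 0.088 without the untreated B6 thymus (-0.16 at the lowest), and with 0.1 FPKM added Serpina1a, Serpina1b and Serpina1c passed the threshold at 4.43, 5.19 and 4.29. The fits without 1 library also drop the treatment term, so their values mix strain with treatment and table; within each treatment Serpina1e and Serpina3k were higher in the MSM liver. The cause of the other changes was not tested. Between the tissues Serpina3f was -0.20 rescaled. In the injected livers 116 member values held, and Serpina3g in MSM moved to 5.26 with 0.1 FPKM added and 0.81 with 5. Depth limits most the thymus values of a few fragments, and FPKM without counts gives no counting interval.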

Other observations

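Other Serpina genes differed among themselves in injected livers. Of 6 with values, 1 was at least 2-fold lower with MegaFasL in both strains, against 1.27% of all genes. That gene was Serpina7, which encodes thyroxine-binding globulin and lies on the X chromosome, with log2 differences of -3.23 in MSM and -1.22 in B6. Serpina12, which encodes the adipokine vaspin, differed by -1.13 in MSM and 1.01 in B6, and the pseudogene Serpina4-ps1 by -1.11 in MSM and 2.65 in B6. Serpina10, the protein Z-dependent inhibitor, differed by -0.16 in MSM and 0.18 in B6. Serpina3f was higher in both, by 1.04 in MSM and 0.06 in B6, at levels of at most 2.42 FPKM. None of these differences was tested. Between the strains in liver, Serpina10 was -0.88 ± 0.21 (SE) with a limma adjusted p of 0.161. Of 7 other Serpina genes compared between the tissues, 5 were higher in liver and 1 lower in the limma fit, against 28.6% and 32.1% of all genes. Serpina7, Serpina11, Serpina12 and Serpina4-ps1 among them entered the fit through their liver level, and Serpina3i, the lower one, through its thymus level. Of 14 other plasma and tissue serpins 6 were higher and 2 lower. Serpinc1, which encodes antithrombin, was higher in liver by 7.89 and Serpinf2, the alpha-2 antiplasmin gene, by 7.40.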
